A study of Mus musculus with 12 samples.

Results

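Type I interferon response genes are the genes that cells switch on when interferon binds its receptor. A list of 40 such gene symbols was followed across mammary tissue of mice with different numbers of working Stat5a and Stat5b copies. These genes lie side by side and encode transcription factors through which prolactin acts on the mammary gland. Of the 40, 37 had a probe set naming that gene alone, and all 37 passed the filter on low signal (log2 6.04, the 30th percentile of probe set means), among 14198 genes tested in all. No probe set in the annotation used here named Ifi44, and Isg15 and Trex1 were named only by probe sets that name several genes, so these 3 have no values. For each gene the probe set of highest mean over the 12 arrays was used, and 16 of the 37 have other probe sets, 24 in all.

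The tissue came from 4 genotypes, 3 mice each, taken 6 days after a mating plug. The strains 129, FVB and C57BL/6 were mixed in their background. Mice labelled Stat5a-/- carried 2 intact alleles of Stat5b and 0 of Stat5a. Those labelled Stat5ab+/null carried 1 of each. Stat5abnull/Stat5b- mice, called single-Stat5a, had 1 intact allele, of Stat5a, and Stat5abnull/Stat5a- mice, called single-Stat5b, had 1, of Stat5b. No wild-type arrays were analysed here, and no source used here gives the age of the mice. The labels' treatment text describes PolyIC given to activate an Mx1-Cre transgene. PolyIC imitates viral RNA and raises interferon, and the Mx1 promoter is itself interferon-induced. No genotype label here names that transgene, the labels do not settle whether these mice were injected, and the bearing of such an injection on the genes below was not tested.

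The 6 arrays of the 2-allele genotypes and the 6 of the 1-allele genotypes form separate array sets: the signal of the actin control was 0.13 to 0.27 higher (log2) at its 3' end than at its 5' end in the first and 2.16 to 3.78 higher in the second. Allele total and array set cannot be told apart, so genotypes were compared within a set. The Stat5a probe set was lower in single-Stat5b than in single-Stat5a (10.98 ± 0.11 against 12.21 ± 0.34, SD, n = 3 each; limma adjusted p = 0.00286). Stat5b does not separate that set: the single-Stat5b arrays gave 9.63 ± 0.27 and the single-Stat5a arrays 9.43 ± 0.25, with overlap (limma adjusted p = 0.796). In the 2-allele set Stat5a went against the label, at 10.30 ± 0.18 on the arrays labelled Stat5a-/- and 9.91 ± 0.15 on the Stat5ab+/null arrays (limma adjusted p = 1.00), and Stat5b, at 9.59 ± 0.07 against 9.90 ± 0.07, did so too. No source used here says whether these probe sets lie in the deleted parts, and every direction in that set is a direction between arrays so labelled. The descriptions speak of sorted cells, but the design gives mammary tissue. Luminal epithelial markers, 6 of 6 measured, had mean log2 signals of 12.25 to 12.62 in the 2-allele and 10.40 to 11.56 in the 1-allele arrays, and white adipocyte markers 12.37 to 13.77 over all arrays.

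As background, interferon alpha and beta bind a receptor of the chains Ifnar1 and Ifnar2, the kinases Jak1 and Tyk2 are activated there, and a factor that holds Stat2 and Irf9 then binds interferon-stimulated response elements in promoters. The genes switched on include RNA sensors, enzymes that block viral translation or degrade RNA, trafficking inhibitors and feedback regulators. Tissues keep a low level of this response without infection, set in part by resident immune cells.

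Promoters of some members hold letters that match the element this factor binds. In RefSeq windows of 250 bases before to 50 after the transcript start (build GRCm38.p6), 30 of the 40 members were matched by symbol, with 37 windows. The core of the response element, GAAANNGAAA or TTTCNNTTTC on the other strand, was found in 10 of 37 member windows (27.0%) and in 1131 of all 32851 windows (3.44%). The core of the gamma-activated site bound by Stat dimers, TTCNNNGAA, which reads the same on both strands, was found in 9 of 37 member windows (24.3%) and in 8.30% of all windows. The first was matched in Bst2, Eif2ak2, Ifih1, Ifit1, Ifit3, Ifitm3, Isg15, Oas1a, Oas3 and Rsad2, and the second in Adar, Bst2, Eif2ak2, Ifi35, Ifit2, Ifitm3, Irf1, Oas1a and Psmb8. A match is a run of letters, not a measured binding site. Below, capitals mark matches to the response element core, in Rsad2, Ifit3 and Ifit1, which have the largest differences among members that hold a match, and in Isg15 for comparison. Ifi44l, which has no match in this window, is shown because its values, once seen, ran opposite to theirs. Lgals3bp, Irf7 and Oasl2, with differences of -0.91, -0.82 and -0.73, have windows without a match, and Ifitm3 and Ifih1, at -0.20 and -0.18, have 1 or more.
Ifit3, chr19:34583279-34583578, plus strand: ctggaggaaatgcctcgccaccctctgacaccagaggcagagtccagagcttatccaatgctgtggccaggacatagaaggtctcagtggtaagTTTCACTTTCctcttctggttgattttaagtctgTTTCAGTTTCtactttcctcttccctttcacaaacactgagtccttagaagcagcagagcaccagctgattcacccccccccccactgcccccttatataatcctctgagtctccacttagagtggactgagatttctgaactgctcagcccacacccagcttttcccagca
Ifit1, chr19:34640639-34640938, plus strand: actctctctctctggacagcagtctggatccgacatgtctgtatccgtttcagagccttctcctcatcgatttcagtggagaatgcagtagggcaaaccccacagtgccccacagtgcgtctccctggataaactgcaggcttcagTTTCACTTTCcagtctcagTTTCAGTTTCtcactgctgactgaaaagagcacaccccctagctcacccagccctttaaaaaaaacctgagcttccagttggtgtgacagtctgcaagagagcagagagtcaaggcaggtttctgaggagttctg
Rsad2, chr12:26456403-26456702, minus strand: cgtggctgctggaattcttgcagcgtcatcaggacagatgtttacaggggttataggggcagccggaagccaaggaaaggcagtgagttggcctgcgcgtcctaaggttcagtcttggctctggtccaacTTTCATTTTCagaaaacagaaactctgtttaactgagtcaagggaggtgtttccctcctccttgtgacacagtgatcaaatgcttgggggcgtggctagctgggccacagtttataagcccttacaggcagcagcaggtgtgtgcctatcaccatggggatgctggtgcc
Isg15, chr4:156200769-156201068, minus strand: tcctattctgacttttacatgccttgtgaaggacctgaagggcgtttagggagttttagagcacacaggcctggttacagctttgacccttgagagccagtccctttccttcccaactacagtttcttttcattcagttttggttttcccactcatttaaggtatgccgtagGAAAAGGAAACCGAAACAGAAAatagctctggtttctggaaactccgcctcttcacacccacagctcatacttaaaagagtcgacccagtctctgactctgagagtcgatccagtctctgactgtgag
Ifi44l, chr3:151762842-151763141, minus strand: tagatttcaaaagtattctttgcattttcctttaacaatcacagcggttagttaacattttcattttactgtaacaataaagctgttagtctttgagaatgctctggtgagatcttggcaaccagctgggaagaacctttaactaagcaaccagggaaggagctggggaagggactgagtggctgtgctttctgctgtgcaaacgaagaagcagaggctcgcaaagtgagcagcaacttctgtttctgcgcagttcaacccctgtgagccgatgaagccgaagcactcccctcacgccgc
The Ifit3 matches begin 156 and 122 bases before the start, those of Ifit1 104 and 85 bases before it, and that of Rsad2 120 bases before it. Overlapping matches in Isg15, 3 in number, make the long run of capitals there.

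In the 1-allele set, interferon response genes stood mostly lower in single-Stat5b than in single-Stat5a, with 1 gene far the other way. Of the 37 measured members, 35 had a difference below 0, against 54.1% of all genes tested, and the members' median log2 difference was -0.43 against -0.03 over all genes. Only Ifit3 was called lower and only Ifi44l higher (limma, adjusted p under 0.05). Of all genes, 0.817% were called higher and 1.37% lower, so the count of calls alone does not set the members apart. At an unadjusted p under 0.05, 18 members (48.6%) were lower, against 6.90% of all genes. In 16 members (43.2%) the difference was below -0.5, against 8.31% of all genes. The 3 single-Stat5b arrays lay below every single-Stat5a array for 10 members (27.0%), where 6.26% of all genes do, and above for 1, where 4.63% do. With 3 arrays against 3, an exact permutation test of a single gene cannot go below p = 0.1. In bulk tissue, fewer cells of a type and less RNA per cell cannot be told apart.

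**Figure D1:**
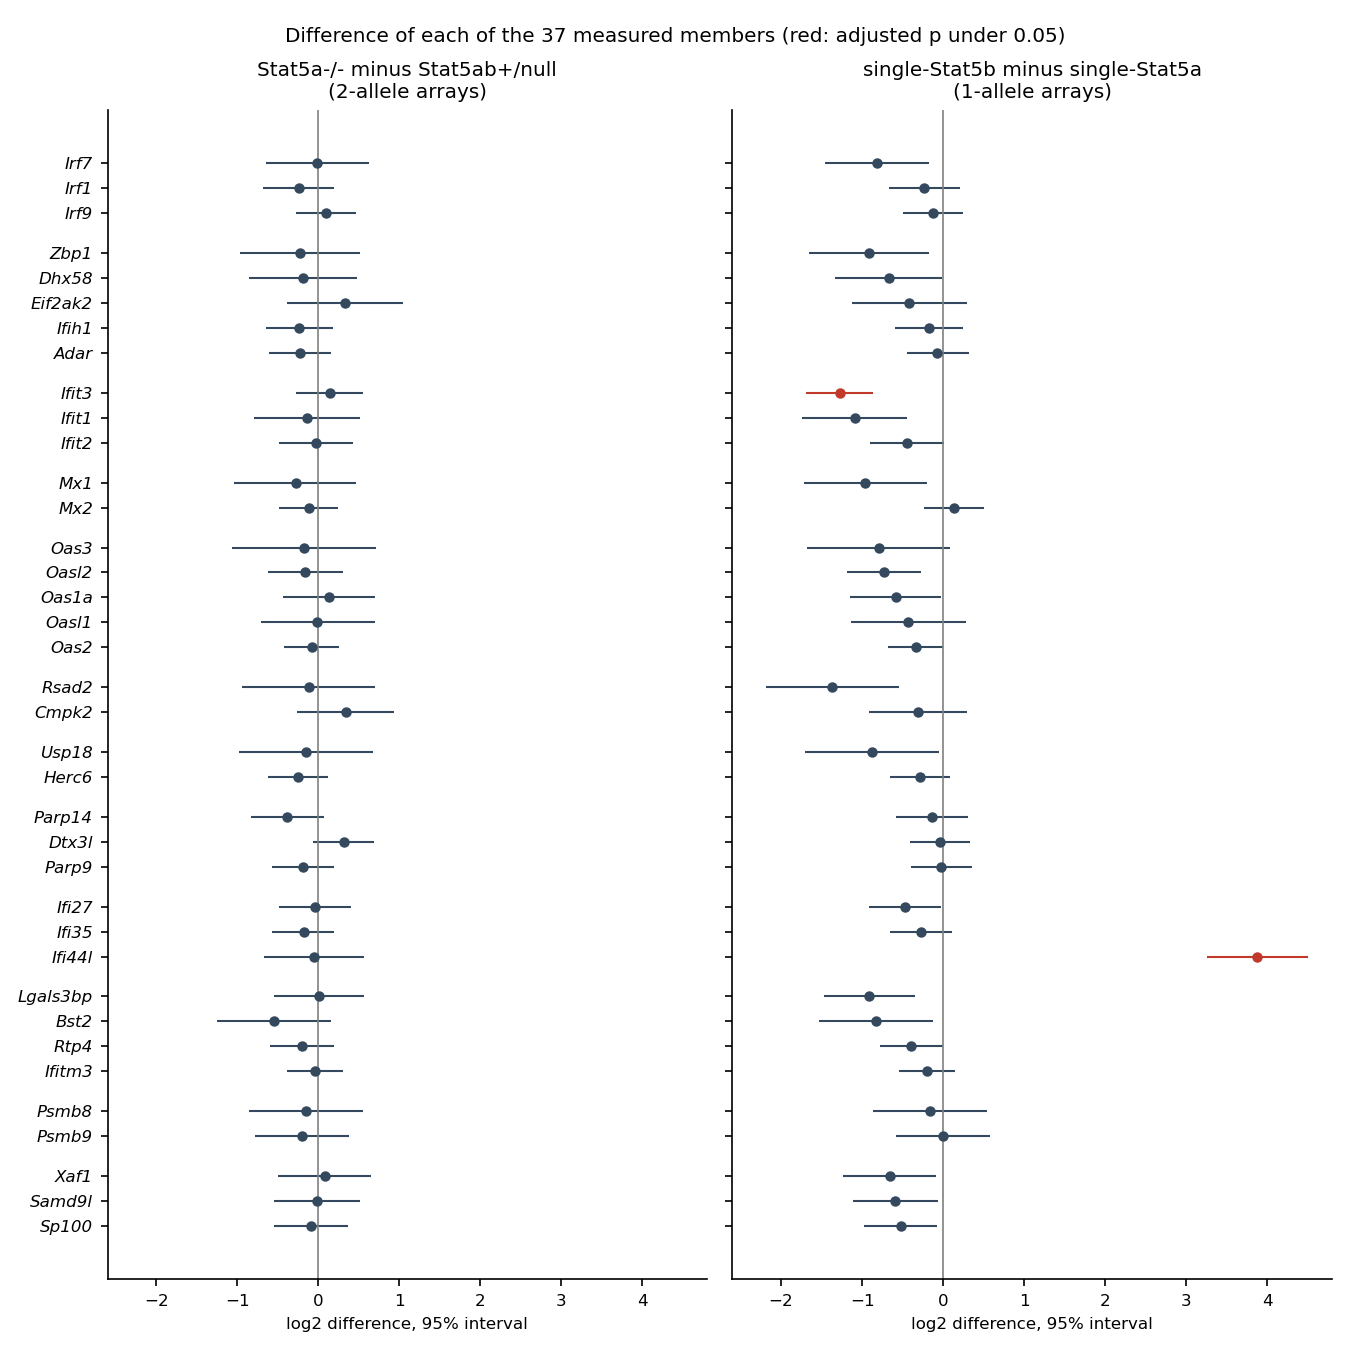
Log2 difference of each measured member with its 95% interval, in the 2-allele arrays (left) and the 1-allele arrays (right), grouped by role; red marks an adjusted p under 0.05. Points on the left lie between -0.54 and 0.34, and on the right all but Ifi44l lie between -1.37 and 0.14.

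In the 2-allele set the members were nearly level. Their differences, arrays labelled Stat5a-/- minus Stat5ab+/null, ran from -0.54 to 0.34 with a median of -0.12, beside -0.08 over all genes. No member was called by limma on the probe set used for it, here or in the 25 alternative settings, and none had an unadjusted p under 0.05 there. Another probe set of Xaf1 is described below. Of all genes 0.00704% were called there (1 gene), and at an unadjusted p under 0.05, 158 were higher and 269 lower. Differences below 0 were found in 29 of 37 members and in 66.4% of all genes, and this count was 23 after quantile normalization and 25 after centring each array on its median. Oasl2 and Ifih1 were lower and Eif2ak2 and Dtx3l higher on every array labelled Stat5a-/- than on every Stat5ab+/null array, while 13.6% of all genes lay apart downwards and 5.49% upwards. The largest fall in value was that of Bst2, at 9.80, 10.16 and 10.29 on the arrays labelled Stat5a-/- and 10.24, 11.06 and 10.57 on the Stat5ab+/null arrays, a difference of -0.54 (95% interval -1.25 to 0.16; limma adjusted p = 1.00).

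The difference of the differences was itself tested, in limma, and was called for 0.775% of all genes and for 2 members, Ifit3 and Ifi44l. For the other 35 an unequal difference in the array sets was not shown, also where the values look unequal.

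The IFIT proteins bind viral RNA and hold back its translation. Ifit3, a partner of Ifit1, gave 10.60, 10.76 and 11.11 in single-Stat5a, 9.43, 9.38 and 9.84 in single-Stat5b, 9.93, 9.90 and 9.74 on the arrays labelled Stat5a-/-, and 9.67, 9.56 and 9.92 in Stat5ab+/null. The single-Stat5a arrays thus stand above the other 9, and 2 of the single-Stat5b arrays lie below every 2-allele array. This order across array sets is a description only. Of all genes, 27.4% lay higher and 23.3% lower on every 1-allele than on every 2-allele array. The difference in the 1-allele set was -1.27 ± 0.19 (SE; 95% interval -1.69 to -0.86), 2.42-fold lower in single-Stat5b (limma adjusted p = 0.00215). In the 2-allele set it was 0.14 (interval -0.28 to 0.55), and the difference of the differences was -1.41 (interval -2.00 to -0.83; limma adjusted p = 0.0277). The call within the 1-allele set was kept in each of the 25 alternative settings run, with values from -1.42 to -1.07. It lay close to the threshold with only the 1-allele groups in the fit (limma adjusted p = 0.0464), and with every probe set kept apart as well (0.0452). Without both 1-allele arrays of the highest 3' over 5' signal the limma adjusted p was 0.047. The call of the difference of differences was lost in 10 of 23 settings, with values from -1.56 to -1.21 over all 23. It was lost with the muscle and B cell covariates (limma adjusted p = 0.285), without both 1-allele arrays of the highest 3' over 5' signal (0.156), and without any 1 of 8 arrays (0.0557 to 0.0997): those labelled Stat5a-/- 1, 2 and 3, Stat5ab+/null 1 and 2, single-Stat5a 2 and 3, and single-Stat5b 1.

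Ifit1, which recognizes the cap of foreign RNA, gave 11.22, 10.61 and 11.15 in single-Stat5a and 9.09, 10.31 and 10.32 in single-Stat5b. The groups do not overlap, but 1 single-Stat5b array lies far below the others. The difference was -1.09 ± 0.30 (SE; limma adjusted p = 0.101). On the 2-allele arrays Ifit1 lay between 9.29 and 9.81. Ifit2, the third of the family here, had a difference of -0.44 (interval -0.90 to 0.01), with overlapping groups.

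**Figure D2:**
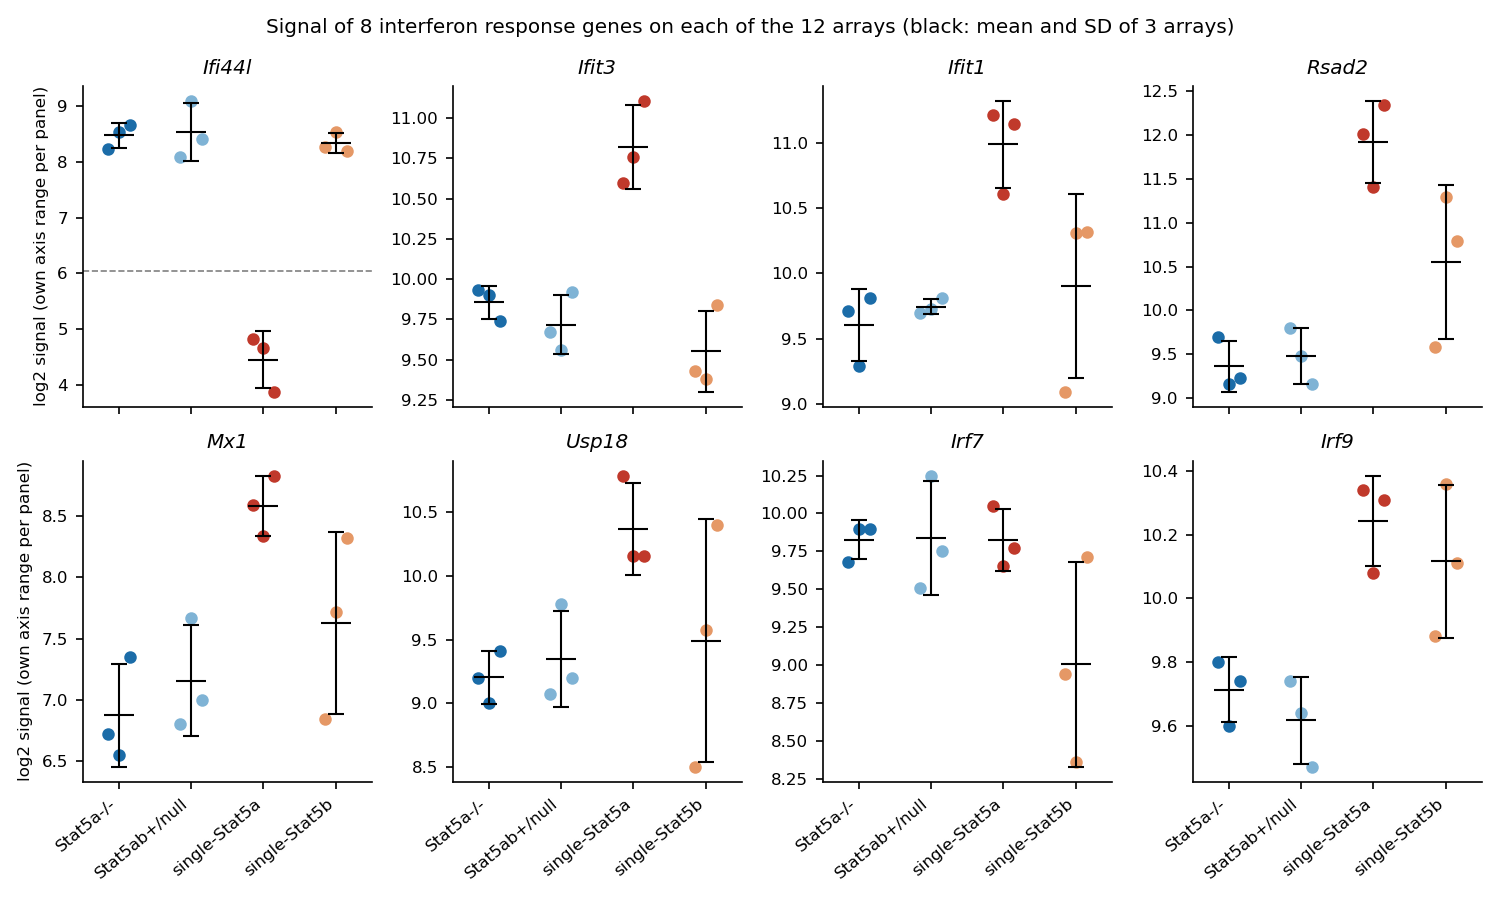
Log2 signal of 8 members on each array by genotype, with the mean and SD of 3 arrays in black; the dashed line in the Ifi44l panel is the filter level of 6.04. Ifi44l lies between 3.87 and 4.82 in single-Stat5a and above 8 elsewhere, while Ifit3, Ifit1, Rsad2 and Mx1 are highest in single-Stat5a. Levels of separate array sets were not tested against each other.

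Ifi44l, an interferon-induced gene beside Ifi44 on chromosome 3, ran opposite to 35 of the other 36 measured members. It gave 4.82, 4.66 and 3.87 in single-Stat5a and 8.26, 8.54 and 8.20 in single-Stat5b. The 2-allele arrays lay with single-Stat5b, at 8.23, 8.53 and 8.67 under the label Stat5a-/- and 8.09, 9.10 and 8.41 in Stat5ab+/null. This too sets levels of separate array sets side by side, without a test. All 3 single-Stat5a arrays are under the filter level, and the other 9 are far above it. The fitted difference was 3.88 ± 0.29 (SE; limma adjusted p = 4.43e-06). Counted only from the filter level of 6.04, single-Stat5b was at least 4.88-fold higher. Its difference in the 2-allele set was -0.05, and the difference of the differences was 3.93 (interval 3.06 to 4.81; limma adjusted p = 0.000212). A further probe set gave 4.71, 4.66 and 4.72 in single-Stat5a and 6.81, 7.28 and 7.44 in single-Stat5b, a fitted difference of 2.48 (limma adjusted p over all probe sets = 5.77e-05). Its single-Stat5a arrays are under the filter level too, and from that level single-Stat5b was at least 2.19-fold higher. The last of its probe sets, with a mean of 4.73, was under the filter level and differed by 0.33. In all 25 settings Ifi44l was called, with values from 2.23, where probe sets were averaged, to 4.11.

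Rsad2, or viperin, makes a chain-terminating nucleotide, and its neighbour on chromosome 12, Cmpk2, supplies the triphosphate for it. Rsad2 gave 12.01, 11.41 and 12.34 in single-Stat5a, 9.58, 11.29 and 10.79 in single-Stat5b, and 9.16 to 9.80 on the 2-allele arrays. The single-Stat5b arrays were all below the single-Stat5a arrays but spread over more than 1 log2 unit. The difference of -1.37 ± 0.38 (SE; limma adjusted p = 0.103) was the lowest value among the members and missed the threshold. Another Rsad2 probe set gave 10.13, 9.61 and 10.57 against 8.24, 8.84 and 8.88, a difference of -1.45 (limma adjusted p over all probe sets = 0.0869). The last, under the filter level, stood at 5.07 ± 0.31 in single-Stat5a and 4.83 ± 0.26 in single-Stat5b but at 7.21 ± 0.58 and 6.93 ± 0.48 in the 2-allele groups, so the Rsad2 probe sets disagree on the order of the array sets. Cmpk2 differed by -0.31 (interval -0.91 to 0.29), with 10.03, 10.01 and 9.50 against 8.81, 9.97 and 9.83. On the 2-allele arrays Cmpk2 had the highest value of all members, 0.34 (interval -0.26 to 0.94), with 8.20, 8.03 and 7.79 against 7.65, 7.82 and 7.51.

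The Mx proteins are GTPases that trap viral nucleocapsids. Mx1 gave 8.59, 8.34 and 8.83 in single-Stat5a and 6.84, 7.72 and 8.32 in single-Stat5b, 2 sets of arrays that nearly touch. The difference was -0.96 ± 0.35 (SE; limma adjusted p = 0.261). On the 2-allele arrays it ran from 6.55 to 7.67. Mx2 gave 6.73, 6.81 and 6.75 against 6.84, 6.76 and 7.11, overlapping groups with a difference of 0.14 (interval -0.23 to 0.50). It is with Ifi44l the only member above 0 in this comparison, and quantile normalization turned Parp9 and Psmb9, and centring Psmb9, to above 0 as well.

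Of the OAS family, whose active members make the messenger that activates RNase L, all 5 measured genes were below 0 in single-Stat5b, with a median of -0.58 and none called. Oasl2 differed by -0.73 ± 0.21 (SE; limma adjusted p = 0.124), at 10.75, 10.25 and 10.29 against 9.42, 9.48 and 10.19, with no overlap. Oas1a gave 9.99, 9.66 and 9.48 against 9.19, 8.57 and 9.62, which overlap, a difference of -0.58 (interval -1.15 to -0.02). Oas3 differed by -0.79 and was the most variable member in single-Stat5b (SD 1.04), with 1 of its arrays, at 5.33, under the filter level. Oas2 and Oasl1 differed by -0.34 and -0.43.

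Irf7, the factor that amplifies interferon production, gave 10.05, 9.65 and 9.77 in single-Stat5a and 8.94, 8.36 and 9.71 in single-Stat5b. The highest single-Stat5b array reaches into the single-Stat5a range. The difference was -0.82 ± 0.29 (SE; limma adjusted p = 0.250). Irf7 stood at 9.83 ± 0.13 and 9.84 ± 0.38 in the 2-allele genotypes. Irf9, the DNA-binding part of the response factor, gave 10.34, 10.08 and 10.31 against 9.88, 10.36 and 10.11, and differed by -0.12 (interval -0.49 to 0.24). Irf1, induced by interferon gamma as well, gave 9.88, 9.82 and 10.16 against 9.94, 9.38 and 9.87, and differed by -0.23 (interval -0.67 to 0.21). The 3 factors thus share a sign but not a size.

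Among the sensors and editors, Zbp1, a sensor of Z-form nucleic acid, gave 9.91, 9.14 and 9.55 against 8.28, 8.13 and 9.44, a difference of -0.92 ± 0.34 (SE; limma adjusted p = 0.285). Again the third single-Stat5b array overlaps with single-Stat5a. Dhx58, a regulator of the RNA sensors that lies 6 coding genes from Stat5a and Stat5b on chromosome 11, differed by -0.67 (interval -1.33 to -0.01), and its 2 other probe sets, both under the filter level, by 0.37 and 0.04. Eif2ak2, the kinase that halts translation on double-stranded RNA, gave 10.84, 10.26 and 10.15 against 9.07, 10.36 and 10.57. Its groups overlap widely (difference -0.42, interval -1.13 to 0.29), and 1 of its other probe sets gave 0.21. On the 2-allele arrays Eif2ak2 gave 8.67, 8.68 and 8.78 against 8.17, 8.33 and 8.64, a difference of 0.33 (interval -0.38 to 1.04). Ifih1, the sensor of long double-stranded RNA, and Adar, which edits adenosines in such RNA, differed by -0.18 and -0.07. Of the other Adar probe sets, both past the filter, 1 gave 0.46 and 1 gave -0.15.

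In the system of the ubiquitin-like protein Isg15, Usp18 removes Isg15 and blocks the receptor, and Herc6 attaches Isg15 in mice. Usp18 gave 10.79, 10.16 and 10.16 in single-Stat5a and 8.50, 9.58 and 10.40 in single-Stat5b (SD 0.95 in single-Stat5b). The third single-Stat5b array lies within the single-Stat5a range and the others lie below it. The difference was -0.88 ± 0.38 (SE; limma adjusted p = 0.396). Herc6 gave 8.34, 8.13 and 8.43 against 8.14, 8.00 and 7.93, a difference of -0.28 (interval -0.65 to 0.09), and 1 of its 3 other probe sets gave 0.32.

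Of the membrane and secreted products, Bst2, the tether of budding virus, gave 9.97, 9.05 and 9.57 against 8.21, 8.48 and 9.40, a difference of -0.83 ± 0.32 (SE; limma adjusted p = 0.316). Lgals3bp, a secreted glycoprotein, differed by -0.91 (limma adjusted p = 0.114), Rtp4 by -0.39 and Ifitm3, which blocks viral entry, by -0.20. Sp100, Samd9l and Xaf1 differed by -0.52, -0.59 and -0.66, and Ifi27 and Ifi35 by -0.47 and -0.27. None of these passed limma's threshold.

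By role, the medians nearest 0 were those of the chromosome 16 neighbours (-0.04) and of the immunoproteasome (-0.08). Parp9, Parp14 and Dtx3l, neighbours that act together in ADP-ribosylation and ubiquitination, differed by -0.02, -0.14 and -0.04. Parp14 gave 10.87, 10.61 and 10.93 against 10.92, 10.25 and 10.82, and Dtx3l 12.62, 12.44 and 12.98 against 12.70, 12.70 and 12.52, with full overlap. On the 2-allele arrays these neighbours took opposite signs. Dtx3l gave 11.46, 11.24 and 11.33 under the label Stat5a-/- against 11.12, 10.93 and 11.04 (difference 0.32, interval -0.06 to 0.69), and Parp14 gave 10.18, 10.10 and 9.94 against 10.53, 10.65 and 10.17 (difference -0.38, interval -0.83 to 0.07). Psmb8 and Psmb9, catalytic subunits of the immunoproteasome, had 1-allele differences of -0.16 (interval -0.86 to 0.54) and 0.00 (interval -0.58 to 0.58).

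The other probe sets mostly took the sign of the one used: of 19 past the filter, 15 did so in the 1-allele and 15 in the 2-allele comparison. A departure in sign and size was seen in Xaf1, a gene of the apoptotic response on chromosome 11. Its main probe set was level in the 2-allele set, at 9.91, 9.90 and 9.84 against 9.74, 9.92 and 9.76. The other probe set gave 6.21, 6.25 and 6.39 under the label Stat5a-/- and 9.03, 9.13 and 8.80 in Stat5ab+/null, a difference of -2.70. On the same probe set the 1-allele genotypes each held low and high arrays, at 7.35, 10.64 and 10.17 in single-Stat5a and 7.21, 10.20 and 10.01 in single-Stat5b. With the spread pooled over all 12 arrays the -2.70 was not called (limma adjusted p over all probe sets = 1.00). In a fit of the 2-allele arrays alone, chosen after seeing the data, the adjusted p was 0.00247. The 2 Xaf1 probe sets do not describe 1 common level, and no direction is given for the gene in that set.

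**Figure D3:**
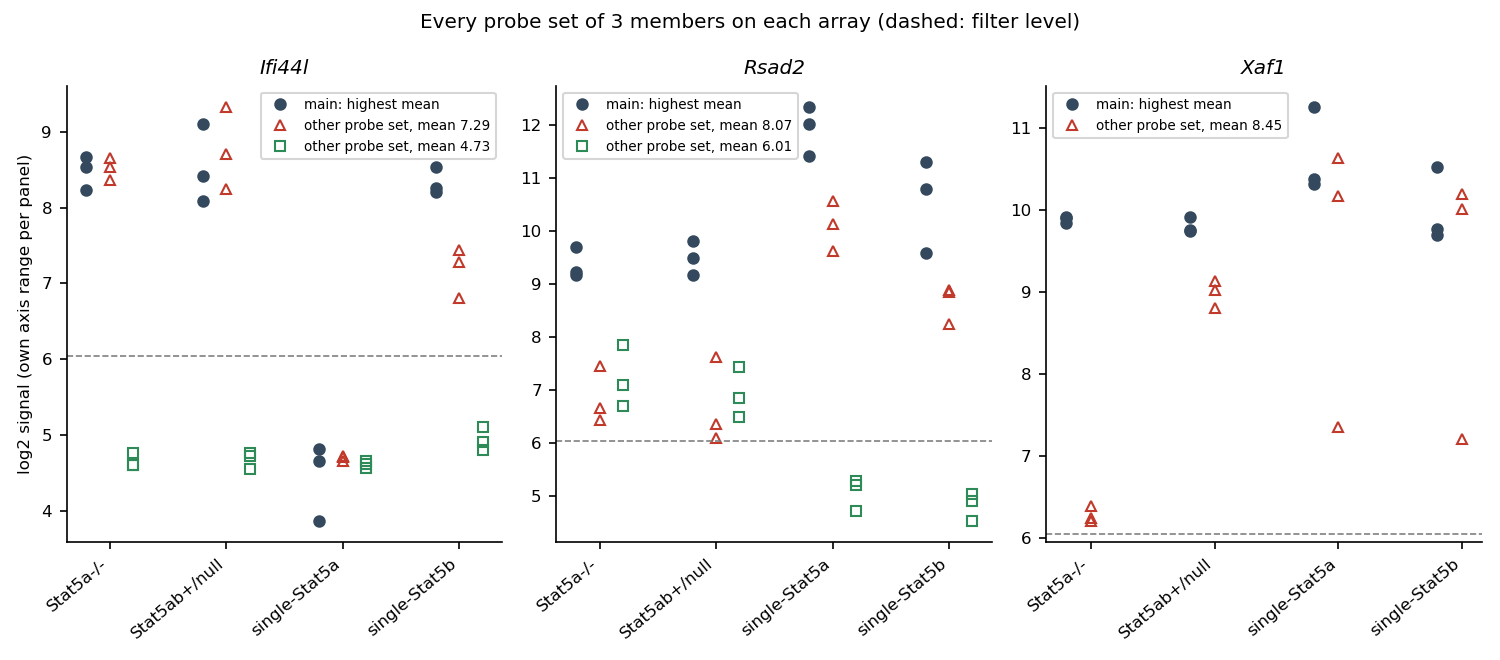
Log2 signal of every probe set of Ifi44l, Rsad2 and Xaf1 on each array by genotype; filled circles are the probe set used, open symbols the others, and the dashed line is the filter level. Both brighter Ifi44l probe sets drop in single-Stat5a, and the open Xaf1 symbols fall to near 6 to 7 on 5 of the 12 arrays.

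Single arrays weighed heavily. Averaged over the 37 members, the log2 signal was 10.23, 9.93 and 10.09 in single-Stat5a, 9.47, 9.59 and 10.06 in single-Stat5b, 9.79, 9.81 and 9.91 under the label Stat5a-/-, and 9.81, 10.10 and 9.86 in Stat5ab+/null. Without Ifi44l the means were 10.38, 10.08 and 10.26 in single-Stat5a and 9.50, 9.61 and 10.11 in single-Stat5b. Array 3 of single-Stat5b thus stood with single-Stat5a and was the highest of its group for 25 of the 37 members. Without it, 12 members were called in the 1-allele set in place of 2: Ifit3, Ifit1, Mx1, Oasl2, Irf7, Usp18, Zbp1, Bst2, Lgals3bp, Ifi27 and Xaf1 lower, and Ifi44l higher. Over all genes 896 were then called in place of 310. The array left out there had the lowest 3' minus 5' signal of its group, at 2.16 for actin and 1.11 for Gapdh. Without array 2 of single-Stat5b, Rsad2 was called beside Ifit3 and Ifi44l, but 8 members had a difference over 1.5 times smaller, among them Irf7 (-0.50), Oas1a (-0.31) and Dhx58 (-0.20). Array 1 of single-Stat5b had the lowest members' mean of the 12 arrays and also the highest 3' minus 5' signal, at 3.78 for actin and 3.91 for Gapdh, where the other 1-allele arrays had 2.16 to 3.07 and 1.11 to 2.80. Without it, Ifit3 (-1.21) and Ifi44l were called as before and the members' median was -0.33, with 33 of 37 below 0. The difference of 11 members was then over 1.5 times smaller, among them Rsad2 (-0.88), Ifit1 (-0.68), Mx1 (-0.57), Usp18 (-0.38), Oas3 (-0.21) and Oasl1 (-0.01), and Eif2ak2 and Cmpk2, at 0.05 each, turned above 0. Without array 1 of single-Stat5a the median was -0.30, and Xaf1 stood at -0.36. The members' median SD was 0.43 in single-Stat5b and 0.26 in single-Stat5a, beside 0.39 and 0.20 over all genes, and 0.15 and 0.23 in the 2-allele groups, beside 0.15 and 0.16.

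**Figure D4:**
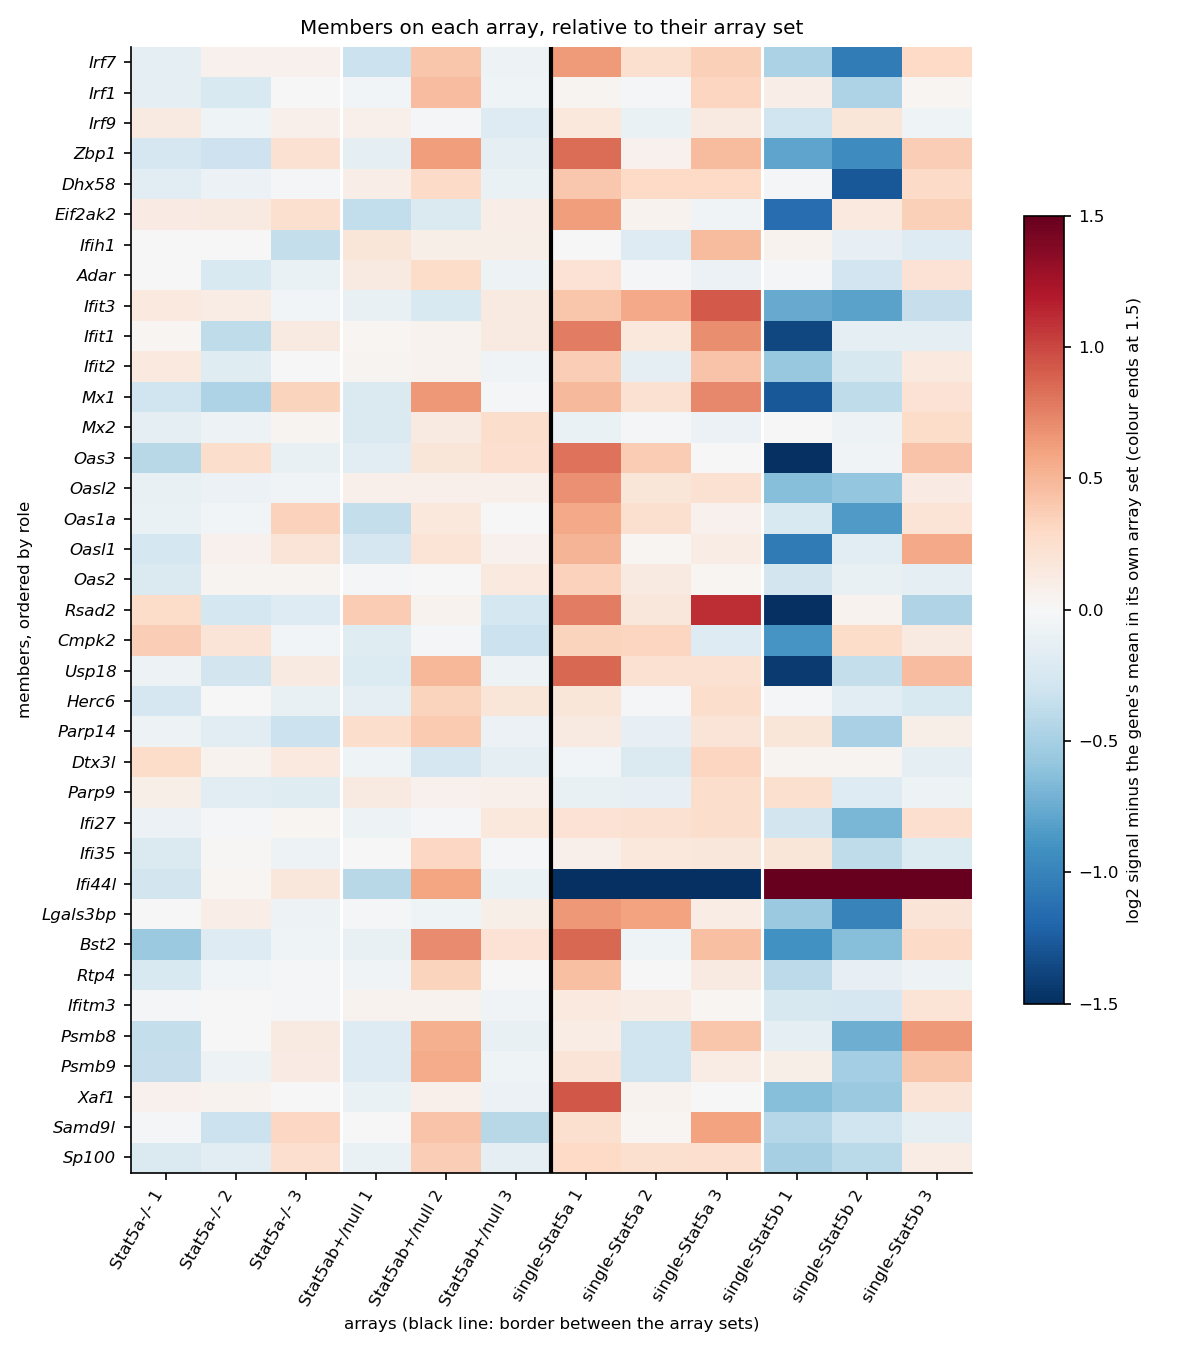
Log2 signal of each member on each array minus the gene's mean over its own array set (colour scale from -1.5 to 1.5), with genes ordered by role and the black line between the array sets. Single-Stat5b arrays 1 and 2 are blue for most members other than Ifi44l, and array 3 is not.

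Cell type markers also varied between these arrays. In the 1-allele set the mean of the skeletal muscle markers was 2.60 lower in single-Stat5b (6 of 6 markers below 0, none called), and stood at 13.73 on array 2 of single-Stat5a. Endothelial markers were 0.54 and adipocyte markers 0.48 lower, and luminal markers 0.38 higher. Macrophage markers ranged from 12.23 to 12.38 in single-Stat5a and were 11.95, 11.97 and 12.74 in single-Stat5b. Among them Cd68 gave 10.51, 10.54 and 12.65 in single-Stat5b, while Mrc1 was highest on array 2 and C1qb on array 1. Being highest on array 3 of single-Stat5b was not particular to macrophages. It held too for the monocyte and neutrophil, plasmacytoid dendritic cell, muscle, adipocyte, luminal and endothelial means, but not for those of B and T cells. Plasmacytoid dendritic cells are known for high interferon output. Of their markers, 3 of 5 were measured, whose mean ran from 8.35 to 9.73 and from 8.05 to 8.94, and which went different ways. Siglech, the most specific of them, was higher on every single-Stat5b array (9.13, 8.40 and 9.27 against 8.07, 8.00 and 8.05; difference 0.90, limma adjusted p = 0.175). Cox6a2, also a muscle gene, stood at 12.23 on array 2 of single-Stat5a, and Klk1 differed by -0.32. In the 2-allele set the B and plasma cell mean ran from 7.08 to 12.04 under the label Stat5a-/- and from 8.23 to 12.46 in Stat5ab+/null. The part of these cell types in the differences above was not tested, except in a fit with the muscle and B cell means as covariates. There Ifit3 (-1.30, limma adjusted p = 0.0333) and Ifi44l were called as before.

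**Figure D5:**
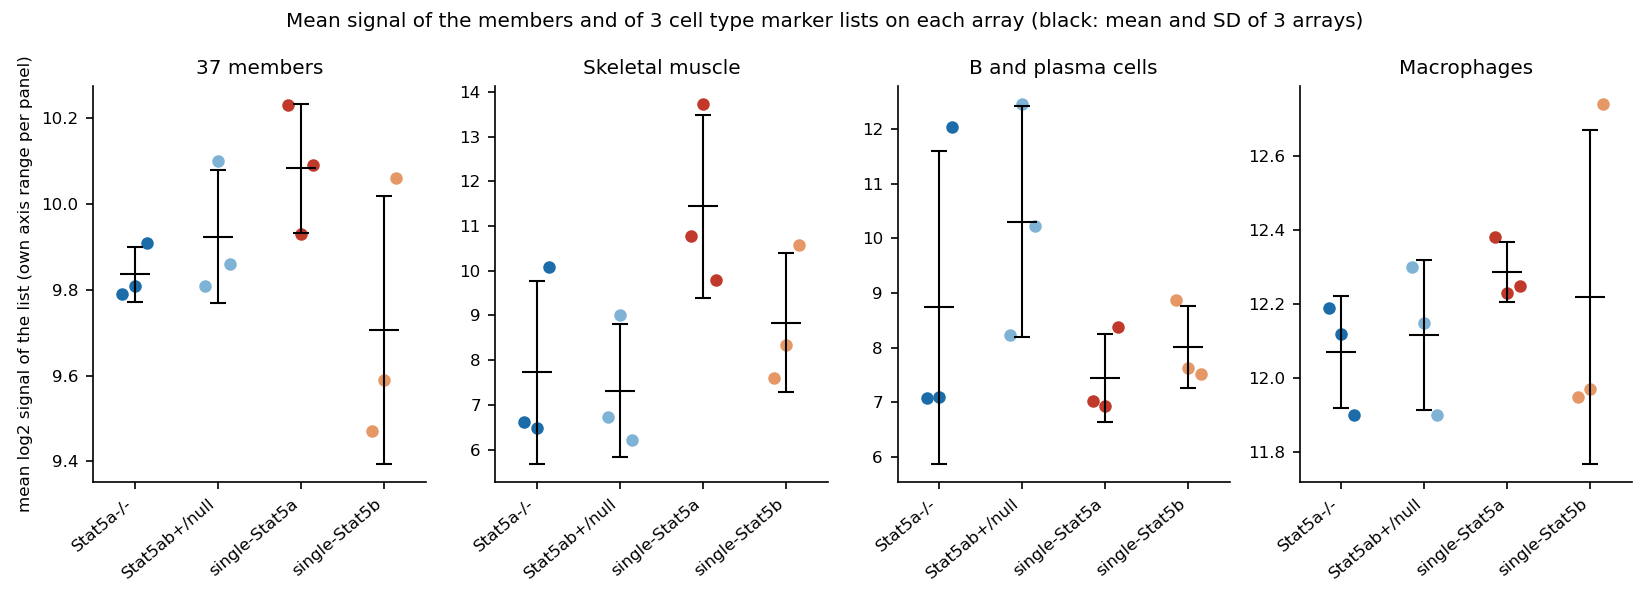
Mean log2 signal of the 37 members and of the skeletal muscle, B and plasma cell, and macrophage markers on each array by genotype, with the mean and SD of 3 arrays in black and an axis range of its own per panel. Within single-Stat5b, the members' mean, the skeletal muscle mean and the macrophage mean are highest on array 3, and the B and plasma cell mean on array 1.

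The machinery of interferon production and signalling, 33 listed genes of which 27 were measured past the filter, held no called gene in either comparison or in the difference of differences. Its median was -0.07 in the 1-allele set (11 above 0, 16 below) and -0.08 in the 2-allele set (5 above, 22 below). Ifnb1, Ifna2 and Ifna4 were under the filter level. Stat2 gave 8.08, 7.75 and 7.64 in single-Stat5a and 7.13, 7.71 and 8.28 in single-Stat5b, overlapping, with a difference of -0.11 (interval -0.64 to 0.41). Ifnar1 gave 9.67, 9.43 and 9.96 against 9.48, 8.77 and 10.10, also overlapping (-0.24, interval -0.83 to 0.36). Ifnar2 gave 11.38, 11.44 and 10.94 against 10.87, 10.72 and 11.07, a difference of -0.37 (interval -0.75 to 0.01). Chosen after the values were seen, the 3 pathway genes with an unadjusted p under 0.05 in a comparison were Tlr9, an endosomal DNA sensor (0.52 in the 1-allele set, limma adjusted p = 0.276), Ifngr1, a chain of the interferon gamma receptor (-0.55 in the 1-allele set, 0.241), and Irf2, a repressor of interferon genes (-0.87 in the 2-allele set, 1.00). Among the 2-allele arrays Stat2, Ifnar1 and Ifnar2 differed by -0.06, -0.02 and -0.04.

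Across the array sets, where no test was made, 5 members lay higher on every 1-allele than on every 2-allele array (Irf9, Ifih1, Eif2ak2, Cmpk2 and Dtx3l) and 10 lower (Irf1, Mx2, Oas1a, Oas2, Ifi27, Parp9, Lgals3bp, Psmb8, Psmb9 and Adar). These are 13.5% and 27.0% of the members, beside 27.4% and 23.3% of all genes, and 22 members overlapped. Members of 1 cluster differ here: Oas2 and Oas3 are neighbours on chromosome 5, and Oas2 stood at 9.73 ± 0.15 and 9.81 ± 0.09 in the 2-allele groups against 7.77 ± 0.15 and 7.43 ± 0.09, while Oas3 overlapped.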

How the data were processed

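Labelled cRNA of 12 mouse mammary samples, 3 in each of 4 genotypes, was hybridized to Affymetrix arrays, per the labels. The authors deposited log2 signal values for each probe set. RMA and Partek are named, without versions, in the submitters' processing notes. The sources used here give no settings and no genome build. Genotypes came from the labels, and replicate numbers follow the record order. Of 45101 probe sets, 34945 named 1 gene in the platform's annotation, 932 several, 9160 none, and 64 were controls. Probe sets under the 30th percentile of mean signal were left out, and the probe set of highest mean per gene was used, for 14198 genes.

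Genotype means with 1 pooled spread were fitted over all 12 arrays with limma 3.58.1 (R 4.3.3), with moderated 2-sided tests, Benjamini-Hochberg adjustment over all genes, and an adjusted p under 0.05 as the threshold. The number of arrays limits the precision. The p-values set each difference against the spread between mice pooled over all genotypes, so a comparison within 1 array set also draws on the spread of the other. The genotypes were not equal in spread: the median SD over all genes was 0.15 in Stat5a-/- and 0.39 in single-Stat5b. The fit was tested on simulated data in which each gene had 1 spread in all genotypes and genes varied independently. These arrays differ from that setting, so the simulation cannot tell how well the p-values hold here. The members, the pathway and marker lists and the tests were chosen with earlier results of these data known. Values on every 1-allele array are given for members called in a comparison, and for Ifit1, Mx1, Irf7, Irf9, Usp18 and Rsad2. The 5 largest rises and 5 largest falls in each comparison within an array set have them too. Only 2 rises exist in the 1-allele set. Of the pathway genes they are given for Stat2, Ifnar1 and Ifnar2. For some of these genes the 2-allele arrays are given only as a range, mean or difference, or not at all. Alternatives were a filter at the 50th percentile or none, array weights, median centring, quantile normalization, a trended and robust variance, all probe sets kept apart or averaged per gene, only the groups compared, the 3' minus 5' actin signal or the muscle and B cell means as covariates, and each array left out in turn. After seeing the data, 2 more were added: both 1-allele arrays of highest 3' minus 5' signal left out, and every probe set with only the groups compared.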

Additional observations from a re-analysis of the deposited data

Results flagged for a closer look

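Members whose difference between the genotypes was unequal in the array sets, by the limma test of the difference of the differences, were Ifit3, at -1.41 (adjusted p = 0.0277), and Ifi44l, at 3.93 (adjusted p = 0.000212). For Ifit3 the difference was -1.27 in the 1-allele set and 0.14 in the 2-allele set. For Ifi44l it was 3.88 in the 1-allele set, with all 3 single-Stat5a arrays under the filter level, and -0.05 in the 2-allele set. Which of allele total and array set this goes with cannot be told apart.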

How the results depend on the processing

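The members' median kept its sign and moved by less than the spread between arrays in every alternative run, in both comparisons. No named member that was called reversed. In the 1-allele set, 2 members were called in all alternatives but array weights (21) and the fits leaving out 1 array (2 to 12). For the difference of differences, 2 became 13 with array weights and 1 with the muscle and B cell covariates or without both arrays of highest 3' minus 5' signal, and 1 to 2 leaving out 1 array. The array weights were 2.46, 0.12 and 0.20 on single-Stat5b arrays 1, 2 and 3. The weighted counts thus lean on array 1 of that group, which had its highest 3' minus 5' signal.

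Over all genes, the 1-allele count of 310 became 631 with every probe set, 2228 with array weights, 157 with only the groups compared, 180 with the covariates, 181 without both high 3' minus 5' arrays (chosen after seeing the data), and 232 to 896 leaving out 1 array. The 2-allele count of 1 became 0 with the 50th percentile filter, 2 with only the groups compared, 4 with every probe set and only the groups compared (chosen after seeing the data), 3 with the covariates, 202 with array weights, and 0 to 5 leaving out 1 array. For the difference of differences, 110 became 233 with every probe set, 1580 with array weights, 55 with the covariates, and 64 to 199 leaving out 1 array. The cause of these changes was not tested, except that every probe set counts more features. No paired analysis was possible because the labels give no pairing of mice between genotypes.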
